A study of Mus musculus with 66 samples.

Results

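The genes encoding the subunits of the NMDA receptor, Grin1, Grin2a, Grin2b, Grin2c, Grin2d, Grin3a and Grin3b, were examined in brain and spinal cord of mice with mutations of Rorb, the gene of the nuclear receptor RORβ. The family was taken whole, which gave 7 of the 45706 genes quantified in each of 66 libraries. It was selected on the expected counts and TPM of an earlier reading of these data, in which Grin2c was lower in spinal cord of Rorb h5/h5 mice than in DBA/1J mice. For that contrast, by whose values the genes were chosen, levels are given as a description with no test.

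Poly(A) RNA was sequenced from 20 groups of 3 or 4 mice, and the mice of each mutant strain were homozygous for their allele. Brain hemisections and spinal cords came from the same animals, aged 7.9 to 9.6 weeks: C57BL/6J controls (n = 3), Rorb h1/h1 (n = 3), Rorb h2/h2 (n = 4), Rorb h3/h3 (n = 4), Rorb h4/h4 (n = 4), DBA/1J controls (n = 3) and Rorb h5/h5 (n = 3). Cortex, hippocampus and cerebellum were dissected from other Rorb h5/h5 mice (n = 3) and DBA/1J mice (n = 3), aged 7.0 weeks, each animal giving all 3 regions. This follows the labelled ages and identifiers, whereas the methods of the study describe hemisected h5/h5 brains of which 1 side was frozen and the other dissected, and the study mentions an age difference of some days among the hippocampus samples that the labels do not show. The h1 allele is a duplication upstream of Rorb on C57BL/6J that includes the first exon specific to the isoform Rorb1, h4 is a nonsense mutation in an exon shared by both isoforms, and h5 removes the start codon of Rorb1 on DBA/1J. The causal change of h2 and h3, which arose on the albino B6(Cg)-Tyr c-2J/J stock, is not known, and h4 arose on a stock that carries a targeted Il1r1 allele. C57BL/6J controls carry neither the Tyr nor the Il1r1 allele, so that effects of these stocks and of the Rorb alleles cannot be told apart. The h1/h1 to h4/h4 comparisons also share the same 3 control libraries per tissue.

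NMDA receptors are glutamate-gated channels built from obligatory GluN1 subunits, encoded by Grin1, and from GluN2 or GluN3 subunits. They open when glutamate and a co-agonist, glycine or D-serine, are bound and depolarisation has lifted the magnesium block, and they admit calcium. GluN2A (Grin2a) and GluN2B (Grin2b) prevail in the adult forebrain, GluN2C (Grin2c) is known from cerebellar granule cells and from astrocytes, GluN2D (Grin2d) from interneurons, brainstem and spinal cord, and the glycine-binding GluN3A (Grin3a) and GluN3B (Grin3b) lower calcium permeability, with GluN3B best known from motor neurons.

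Sequencing depth lay between 32889755 and 59120536 counts per library, with a median of 42391893. Rorb itself had 2.57 to 3.57 TPM (a level that takes transcript length into account and sums to the same total in every library) in h4/h4 brain against 10.99 to 13.14 in C57BL/6J brain, lay below the controls in h1/h1 and h2/h2 mice, overlapped them in h3/h3 brain (11.14 to 11.75) and was higher in h5/h5 brain (15.40 to 18.24 against 10.59 to 13.75 in DBA/1J). The 8 markers of cerebellar granule cells summed to between 3299 and 3576 TPM in the cerebellum libraries, and to between 25.1 and 68.4 TPM in cortex and hippocampus. Gabra6 and Fat2, which define granule cells, stayed under 0.1 TPM in every spinal cord group. The DBA/1J brain library of replicate 1 stood apart, with a granule marker sum of 63.5 TPM against 272 to 593 TPM in the other brain libraries. The 3 libraries of h5/h5 replicate 3 in the dissected regions, labelled female, had 148 to 244 TPM of 4 Y-linked genes and at most 0.43 TPM of Xist, and the Grin2c effects in cortex and hippocampus are given with and without them. Choroid plexus markers varied widely in the dissected hippocampi, from 236 to 6182 TPM.

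The members lie on separate chromosomes of GRCm38.p6. Grin1 (ENSMUSG00000026959) spans positions 25291177 to 25319187 of chromosome 2, Grin2a (ENSMUSG00000059003) 9567901 to 9996083 of chromosome 16, and Grin2b (ENSMUSG00000030209) 135713221 to 136173615 of chromosome 6. Grin2c (ENSMUSG00000020734) spans 115249169 to 115267297 of chromosome 11, and Grin2d (ENSMUSG00000002771) 45831883 to 45871194 of chromosome 7. Grin3a (ENSMUSG00000039579) spans 49661611 to 49846023 of chromosome 4, and Grin3b (ENSMUSG00000035745) 79970397 to 79977190 of chromosome 10. Grin2c and Grin2d overlap no other annotated gene. No strand setting is given for the counting, so reads of Grin1 and of Grin1os, a noncoding gene that shares 7403 bases with it, cannot be told apart. Ppp3r2 lies within Grin3a (3237 bases), and Tmem259 overlaps Grin3b by 71 bases. The noncoding genes Gm14330, Gm14329 and Gm26653 share 33651, 11433 and 588 bases with Grin2b. The pseudogene Gm19143 lies within Grin2a (676 bases), and Lrrc26 overlaps Grin1 by 17 bases.

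The stretch upstream of Grin2c is shown because edgeR called Grin2c in h4/h4 spinal cord and h5/h5 hippocampus and because RORβ is a DNA-binding receptor. It is the part of the RefSeq promoter window outside the gene, chr11:115267298-115267493 of GRCm38.p6, minus strand, 5′ to 3′, with the capitals marking AGGTCA, the half-site to which ROR and REV-ERB receptors bind.
Grin2c promoter: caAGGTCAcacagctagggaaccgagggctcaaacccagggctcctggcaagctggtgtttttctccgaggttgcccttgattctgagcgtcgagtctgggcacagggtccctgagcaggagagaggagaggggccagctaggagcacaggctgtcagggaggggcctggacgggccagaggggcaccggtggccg
AGGTCA was searched on both strands in the 250 bases before the start of each gene, and in Grin2c it was found once, on the gene's own strand, at the start of the printed stretch. Its first base lies at position -248 from the transcript start of the promoter table, which is inside the gene span given above. It was found in 3740 of 27025 promoter windows (13.8%), and in none of those of Grin1, Grin2d and Grin3b. The windows of the other members were not used here. A match of this kind describes letters and does not show binding.

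In control mice the members followed regional patterns that differed from gene to gene. Grin1, the obligatory subunit, varied least. In DBA/1J mice it had 250, 291 and 269 TPM in cortex, 263, 264 and 256 in hippocampus, 258, 269 and 233 in cerebellum, 174, 198 and 186 in brain hemisection and 168, 152 and 165 in spinal cord. The first 3 of these regions overlapped, and brain and spinal cord lay below them without overlap. Separation of this kind is common between tissues. In DBA/1J spinal cord against brain, 23.4% of genes of at least 1 TPM lay wholly below and 30.6% wholly above.

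**Figure D1:**
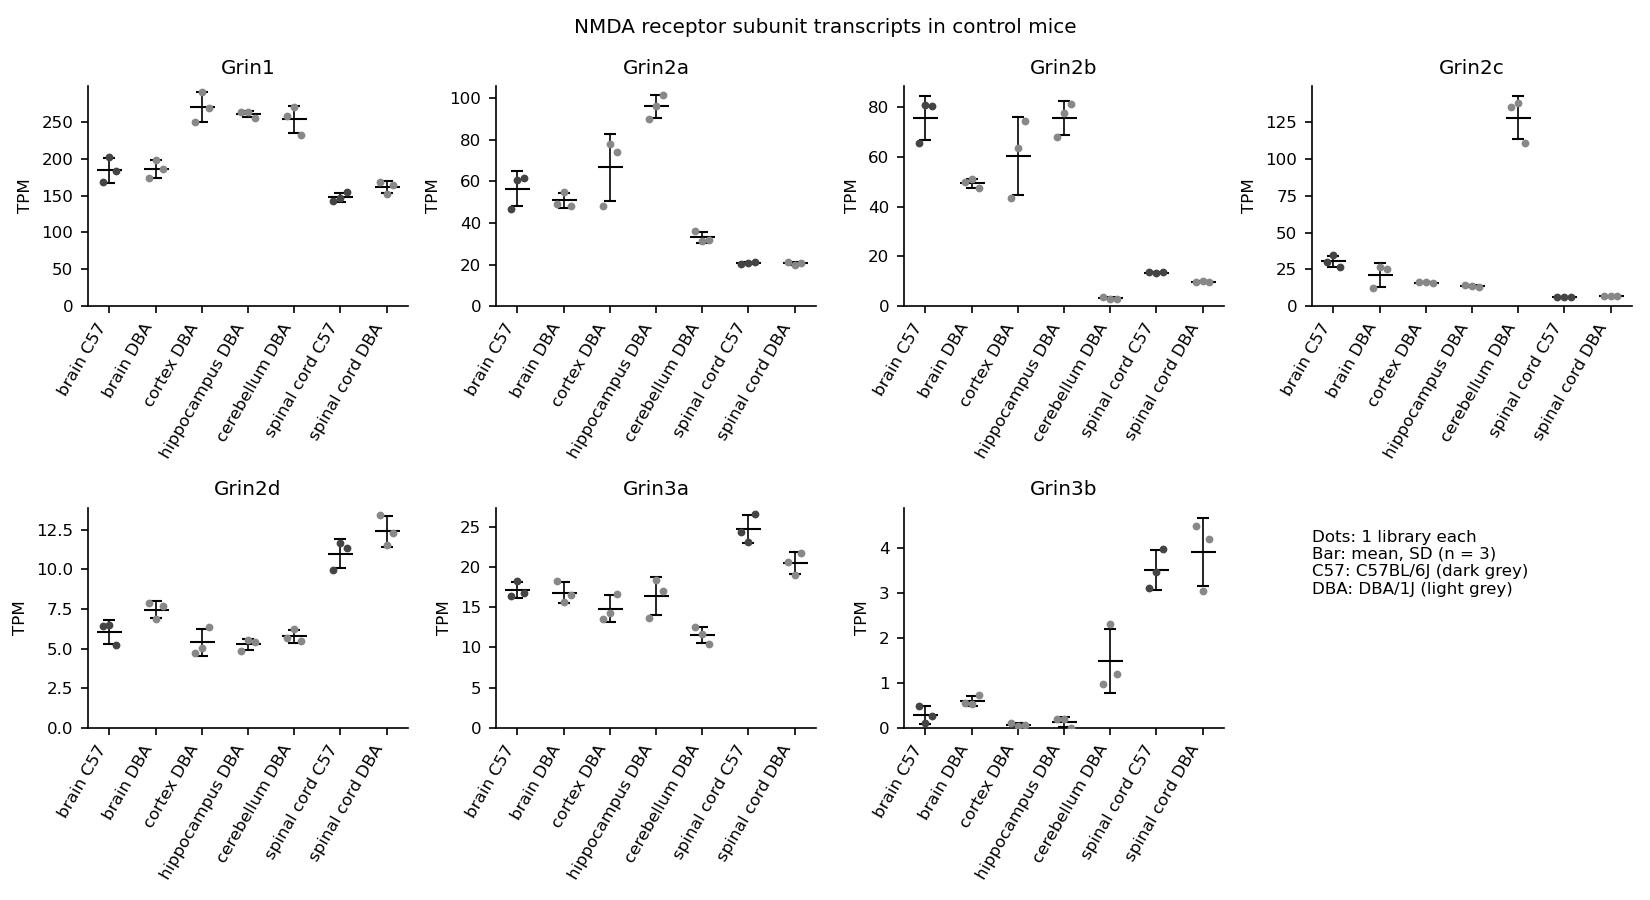
TPM of the 7 NMDA receptor subunit genes in control mice, with 1 panel per gene, a linear axis from 0, 1 dot per library and the mean with its SD (n = 3) per tissue and strain. Grin2c stands out in cerebellum (111 to 138 TPM in DBA/1J), Grin2b is lowest there (2.86 to 3.69 TPM), and Grin2d, Grin3a and Grin3b are highest in spinal cord.

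Grin2a and Grin2b, the main forebrain GluN2 genes, were highest in hippocampus. Grin2a had 90.2, 96.3 and 101.7 TPM in DBA/1J hippocampus and 48.4, 77.99 and 74.2 TPM in cortex. These did not overlap, and 22.3% of genes of at least 1 TPM lay wholly above likewise, while cortex overlapped brain (48.4 to 55.0 TPM). It had 31.4 to 36.4 TPM in cerebellum and 19.9 to 21.1 TPM in spinal cord. Grin2b had 67.9 to 81.2 TPM in hippocampus, 43.4 to 74.2 TPM in cortex and 47.5 to 51.1 TPM in brain, 3 ranges that overlap from neighbour to neighbour. It then had 9.64 to 10.2 TPM in spinal cord and 2.86 to 3.69 TPM in cerebellum. The low DBA/1J cortex value of both genes belongs to replicate 1, whose oligodendrocyte marker sum was the highest of the 6 cortex libraries (5229 TPM, against 3424 to 4451 TPM), and the part of this in the result was not tested.

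Grin2c was highest in cerebellum. DBA/1J cerebellum had 135, 138 and 111 TPM, cortex 16.3, 16.2 and 15.7 TPM, hippocampus 14.5, 13.7 and 13.4 TPM and spinal cord 7.02, 6.97 and 7.23 TPM. These 4 regions did not overlap, and brain (12.1, 26.6 and 25.2 TPM) overlapped cortex only through the replicate 1 library that was low in cerebellar markers. Of genes of at least 1 TPM, 48% lay wholly above in cerebellum against cortex and 45.2% against hippocampus. In hippocampus against cortex 13.7% lay wholly below. Grin2d was highest in spinal cord (13.5, 11.5 and 12.3 TPM), then brain (7.86, 6.85 and 7.68 TPM), while cerebellum, cortex and hippocampus overlapped between 4.75 and 6.38 TPM.

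The GluN3 genes were also highest in spinal cord. Grin3a had 19.0 to 21.7 TPM in DBA/1J spinal cord, 13.5 to 18.4 TPM over brain, hippocampus and cortex, which overlapped, and 10.5 to 12.5 TPM in cerebellum. Grin3b, the rarest member with 0 to 275 counts per library, had 3.05 to 4.48 TPM in spinal cord, 0.98 to 2.31 TPM in cerebellum and 0.52 to 0.72 TPM in brain. In DBA/1J cortex and hippocampus it stayed at or below 0.19 TPM, and in those of h5/h5 mice at or below 0.35 TPM. It did not pass the low-count filter in the comparisons made within or between these 2 regions.

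Between tissues of control mice, edgeR's quasi-likelihood test on all genes called all 7 members in spinal cord against brain, in both strains. These fits, and those between regions below, held no term for the animal that the tissues share. In C57BL/6J 56.9% of all genes tested were called and in DBA/1J 50.8%, so that a call by itself says little about a member, and the size and sign carry the description. In C57BL/6J, the log2 fold change (± SE) of spinal cord against brain was -2.40 ± 0.09 for Grin2b, -2.23 ± 0.08 for Grin2c, -1.40 ± 0.07 for Grin2a and -0.31 ± 0.06 for Grin1, while Grin2d rose by 0.89 ± 0.08, Grin3a by 0.54 ± 0.05 and Grin3b by 3.62 ± 0.28. Signs were the same in DBA/1J, where Grin2c was at -1.62 ± 0.25, and at -1.91 without the brain library low in cerebellar markers. In bulk tissue, fewer cells of a type and less RNA per cell cannot be told apart.

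Cerebellum differed from cortex by Grin2c, at a log2 fold change of 2.75 ± 0.09 (edgeR adjusted p = 1.3e-08), and by Grin2b, which fell by 4.61 ± 0.18 (adjusted p = 3.1e-08). Of the members, 6 of 7 were called in this contrast, where 58.1% of all genes were called, and 6 of 7 against hippocampus, where 64% were called. Grin2d was the exception in both, at -0.11 ± 0.11 and -0.08 ± 0.09. Grin3b was higher in cerebellum than in cortex (3.84 ± 0.52) and Grin3a was lower (-0.62 ± 0.09). Grin1 was also called lower (-0.41 ± 0.08), although its TPM ranges overlap. The fit scales libraries by TMM factors and uses no length, and with TMM-scaled values per length its mean was 226 in cerebellum and 274 in cortex, against 253 and 270 TPM. Hippocampus against cortex called 2 of 6 members tested, beside 20.6% of all genes, with Grin2a higher (0.49 ± 0.14, edgeR adjusted p = 0.038) and Grin2c lower (-0.27 ± 0.08, adjusted p = 0.046). Leaving out a library gave edgeR adjusted p-values of 0.012 to 0.13 for Grin2a and 0.031 to 0.18 for Grin2c, so that Grin2a lost its call without any 1 of the 3 hippocampus libraries, and Grin2c without any 1 of these or of cortex replicates 1 and 2.

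Because TPM is per length, the 4 GluN2 genes can be set against each other within a library, as far as the assigned lengths hold. For Grin2b in h4/h4 spinal cord TPM and counts gave opposite signs, as described below. Grin2a and Grin2b together made up most GluN2 transcripts in forebrain. In DBA/1J hippocampus Grin2a had 50.4% ± 0.48 (SD, n = 3) and Grin2b 39.6% ± 1.1 of the summed GluN2 TPM, and in cortex 44.8% ± 2.7 and 40.4% ± 2.8. Cerebellum had another mix, with 75.2% ± 1.9 Grin2c, 19.5% ± 1.8 Grin2a and 1.88% ± 0.16 Grin2b. In spinal cord Grin2d took 24.9% ± 1.3 in DBA/1J and 21.2% ± 1.3 in C57BL/6J mice, against 2.69% to 6.61% in the other DBA/1J tissues.

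**Figure D2:**
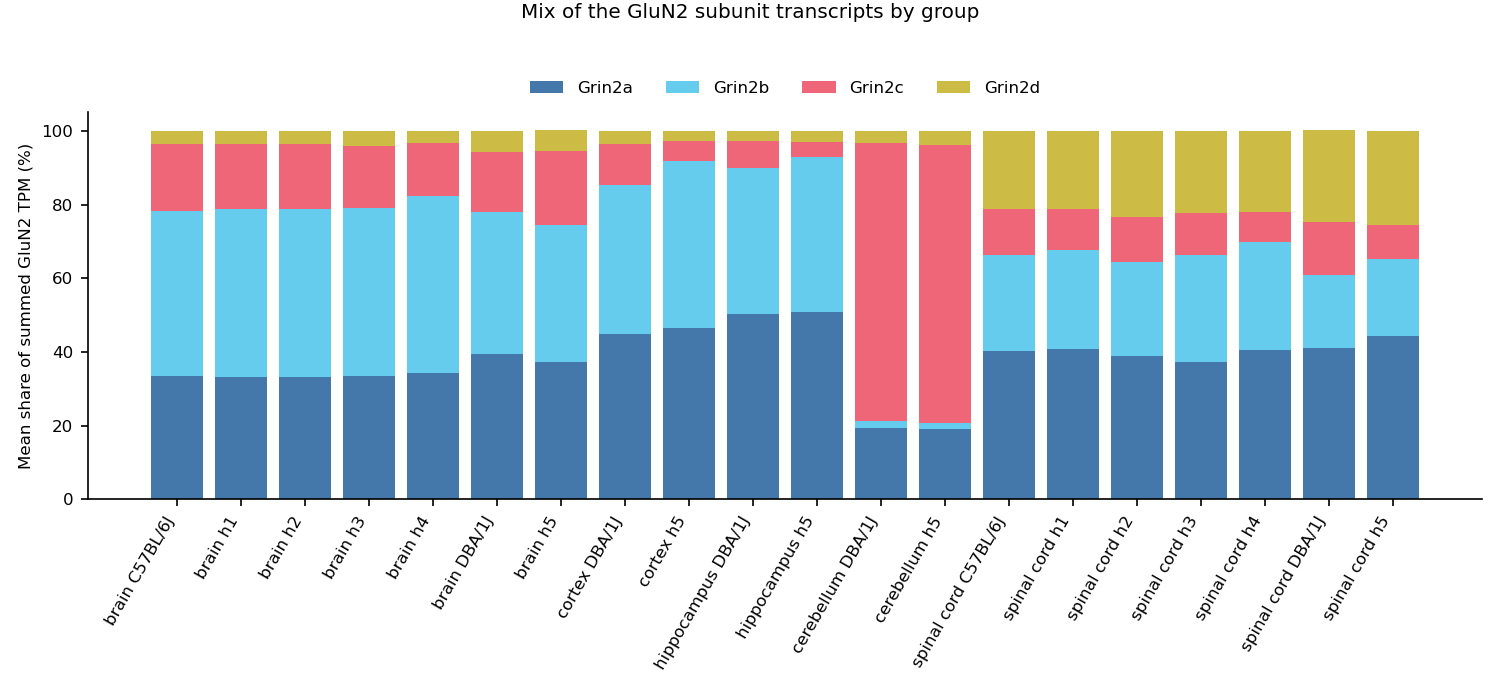
Mean share of Grin2a, Grin2b, Grin2c and Grin2d in their summed TPM, as stacked bars for the 20 groups (3 or 4 libraries each). Grin2c makes up 75.2% in DBA/1J cerebellum, and its band is narrower in h5/h5 than in DBA/1J cortex (5.41% against 11.2%), hippocampus (3.86% against 7.29%) and spinal cord (9.36% against 14.2%).

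Relative to Grin1, GluN2 transcripts were scarce in spinal cord. The summed GluN2 TPM was 0.31 ± 0.0093 times the Grin1 TPM in DBA/1J spinal cord and 0.35 ± 0.0085 times in C57BL/6J, against 0.548 ± 0.091 in cortex, 0.672 ± 0.027 in cerebellum and 0.732 ± 0.057 in hippocampus. The GluN3 sum in DBA/1J spinal cord was 24.4 ± 2 TPM, beside a GluN2 sum of 50 ± 1.3 TPM. Hippocampus had 16.5 ± 2.4 and 191 ± 12 TPM of these sums.

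The control groups of the strains differed in labelled age, at 8.0 weeks in C57BL/6J and 8.4 to 8.9 weeks in DBA/1J mice. Strain, age and any batch can thus not be told apart. The mix of labelled sexes differed too, and the fits below held no term for it. Between these groups Grin2b differed. Its brain level was 65.7, 80.9 and 80.6 TPM in C57BL/6J mice and 49.9, 51.1 and 47.5 TPM in DBA/1J mice, without overlap, where 17.7% of genes of at least 1 TPM lay wholly below, a log2 difference of -0.50 ± 0.10 (edgeR adjusted p = 0.013, and 0.057 without C57BL/6J replicate 2, the 1 library of 6 whose removal ended the call). In spinal cord C57BL/6J mice had 13.7, 13.3 and 13.6 TPM and DBA/1J mice 9.72, 10.2 and 9.64 TPM (-0.40 ± 0.05, edgeR adjusted p = 7.2e-05). The mutants followed their background, with at least 61.5 TPM in all h1/h1 to h4/h4 brains and at most 47.5 TPM in h5/h5 brains. Grin2a was 1.03 ± 0.046 times Grin2b in DBA/1J brain and 0.745 ± 0.027 times in C57BL/6J brain.

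Grin2d was higher in DBA/1J brain (0.41 ± 0.10, edgeR adjusted p = 0.023), at 7.86, 6.85 and 7.68 TPM against 6.46, 6.48 and 5.20 TPM. Without the DBA/1J brain library low in cerebellar markers its edgeR adjusted p was 0.072, and without C57BL/6J replicate 1 or 3 it was 0.057 or 0.082. Of the 7 members 2 were called in brain, beside 11.2% of all genes, and 3 in spinal cord, beside 21.3%. Spinal cord Grin3a was lower in DBA/1J mice (-0.30 ± 0.05, edgeR adjusted p = 0.00038), at 20.7, 19.0 and 21.7 TPM against 24.3, 23.2 and 26.6 TPM. Grin1 was called there at 0.14 ± 0.04 (edgeR adjusted p = 0.043), although the TPM ranges overlap, and the call was lost without C57BL/6J replicate 1 or 2 or DBA/1J replicate 1 or 2 (0.079 to 0.17). Grin2d, at 0.17 (edgeR adjusted p = 0.14), was called there only without DBA/1J replicate 3 (0.25, adjusted p = 0.016). Astrocyte marker sums were lower in DBA/1J controls, at 3210 to 3767 against 4251 to 4476 TPM in spinal cord and 1939 to 2080 against 2383 to 2619 TPM in brain. Oligodendrocyte sums were lower in brain (5066 to 5664 against 6199 to 7105 TPM) and overlapped in spinal cord. The part of these cell types in the strain results was not tested.

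In the mutants Grin2c was the only member called by edgeR in the fits of 1 mutant group against its controls. In spinal cord of h4/h4 mice it had 3.55, 4.19, 3.94 and 3.93 TPM, against 6.23, 6.57 and 6.38 TPM in C57BL/6J controls. Every mutant library lay below every control library, as in 8.55% of genes of at least 1 TPM, and the fitted level was 0.618 times that of controls (log2 fold change -0.69 ± 0.07, 95% interval -0.85 to -0.54, edgeR adjusted p = 0.00026). It ranked 11 of 17427 genes by p-value, and 1.75% of all genes were called. With DESeq2 the adjusted p was 3e-12, and without each library in turn edgeR gave 0.00031 to 0.0022. With the replicate number as a block, in a fit without h4/h4 replicate 4, it was 0.001.

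The h1/h1, h2/h2 and h3/h3 spinal cords showed no such call for Grin2c. They had 5.69, 6.06 and 5.27 TPM, then 6.96, 6.03, 5.73 and 5.66 TPM, then 6.04, 6.12, 5.89 and 6.86 TPM, with log2 fold changes of -0.09 ± 0.07, -0.07 ± 0.07 and -0.01 ± 0.07. The h1/h1 libraries lay just below the controls, as did those of 23.6% of genes of at least 1 TPM in that comparison, and the other groups overlapped them. Whether the change in h4/h4 mice differs from those in the other strains was not tested.

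In spinal cord of h5/h5 mice, the contrast by which the genes were chosen, Grin2c had 4.31, 4.05 and 4.02 TPM against 7.02, 6.97 and 7.23 TPM in DBA/1J. The fitted level was 0.577 times that of controls. Of all genes 0.00581% were called in that contrast, from which nothing is read for the members.

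By their labels, cortex and hippocampus came from other h5/h5 mice. Cortex had 8.45, 7.96 and 9.77 TPM of Grin2c against 16.3, 16.2 and 15.7 TPM in DBA/1J. The mutant libraries lay below the controls, as in 2.98% of genes of at least 1 TPM, at 0.517 times the control level (log2 fold change -0.95 ± 0.10, 95% interval -1.18 to -0.72), and Grin2c ranked 1 of 17220 genes. With an edgeR adjusted p of 0.069 it was not called, nor was any other gene (0%), whereas 1106 genes had an unadjusted p under 0.05 and DESeq2 called 60. The DESeq2 adjusted p of Grin2c was 1.7e-12, and edgeR called it with no low-count filter (0.0017). Without a library its edgeR adjusted p ranged from 0.0089, without DBA/1J replicate 3, to 0.6, without mutant replicate 2. Without mutant replicate 3, whose sex label its reads contradict, the log2 fold change was -1.04 (edgeR adjusted p = 0.14).

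Hippocampus had 8.08, 6.63 and 7.66 TPM of Grin2c in h5/h5 mice against 14.5, 13.7 and 13.4 TPM in DBA/1J mice. Again the groups did not overlap, with 2.51% of genes of at least 1 TPM wholly below, and Grin2c was 0.525 times the control level (log2 fold change -0.93 ± 0.09, edgeR adjusted p = 0.045). It was 1 of 2 genes called among all tested (0.0118%) and ranked 2 of 16961. DESeq2 gave an adjusted p of 3.3e-14. With the replicate number as a block, edgeR called 0 genes. Leaving out mutant replicate 2 kept the call (-0.86, edgeR adjusted p = 0.029), and leaving out any of the other 5 libraries ended it (0.082 to 0.27). Among these was mutant replicate 3, whose sex label its reads contradict (-0.93, edgeR adjusted p = 0.21).

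Cerebellum, where Grin2c was most abundant, did not show the decrease. The h5/h5 libraries had 142, 151 and 130 TPM and the DBA/1J libraries 135, 138 and 111 TPM, overlapping ranges with a log2 fold change of 0.13 ± 0.08 (95% interval -0.04 to 0.31, edgeR adjusted p = 0.92, beside 0.012% of all genes called). The difference between regions was itself tested. The h5/h5 effect on Grin2c was higher in cerebellum than in cortex by 1.10 ± 0.13 on the log2 scale (edgeR adjusted p = 0.015), and than in hippocampus by 1.07 ± 0.12 (adjusted p = 0.013). It was the only gene called of 18033 (0.00555%) and of 17832 (0.00561%). With the animal as a block, since the 3 regions come from the same mice, these adjusted p-values were 0.12 and 0.035. Without a library they ranged from 0.0064 to 0.12 and from 0.0098 to 0.065, and the call was lost in 5 and 3 of 12 such fits. The libraries whose removal ended it were mutant replicates 1 and 2 in cortex and in cerebellum and DBA/1J replicate 1 in cerebellum for the former, and DBA/1J replicate 1 and mutant replicate 3 in hippocampus and mutant replicate 1 in cerebellum for the latter. Between hippocampus and cortex the effect differed by 0.02 ± 0.14 (95% interval -0.28 to 0.32), and no gene was called (0%) by edgeR or by DESeq2, with 507 at an unadjusted p under 0.05.

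**Figure D3:**
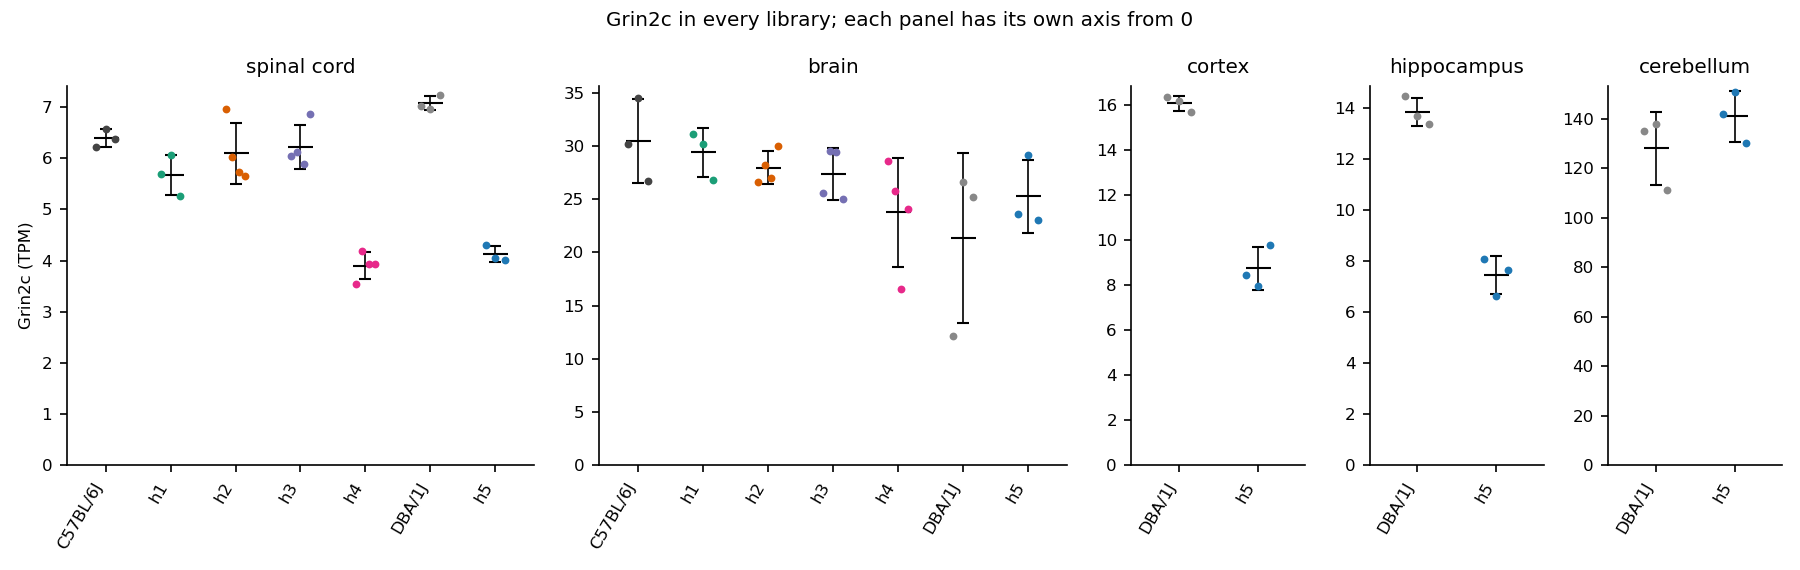
Grin2c in TPM in all 66 libraries, with a panel per tissue, each with its own linear axis from 0, 1 dot per library and the mean with its SD per group. The h4/h4 and h5/h5 spinal cords (3.55 to 4.31 TPM) and the h5/h5 cortex and hippocampus lie below all of their controls, while cerebellum and brain overlap. Of genes of at least 1 TPM, 8.55%, 4.64%, 2.98% and 2.51% lie wholly below in the separated comparisons, in the order named.

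In brain hemisections, which include cerebellum, the groups overlapped in both strains. C57BL/6J brains had 30.2, 34.5 and 26.7 TPM of Grin2c and h4/h4 brains 28.6, 25.8, 16.6 and 24.1 TPM (-0.31 ± 0.12, edgeR adjusted p = 0.32, beside 0.703% of all genes called). The fit with the replicate number as a block also leaves out h4/h4 replicate 4, whose number no control has. Its log2 fold change was -0.36 and its edgeR adjusted p was 0.033. Equal numbers have the same labelled sex in this comparison. With labelled sex in place of the block, and replicate 4 kept, the values were -0.27 and 0.29. Without h4/h4 replicate 3, and without the block, the log2 fold change was -0.19 (edgeR adjusted p = 0.43). DBA/1J brains had 12.1, 26.6 and 25.2 TPM and h5/h5 brains 23.6, 29.2 and 23.0 TPM (0.18 ± 0.24, edgeR adjusted p = 0.96), and without DBA/1J replicate 1 the log2 fold change was -0.11.

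Over the 24 brain libraries, Grin2c rose with the granule cell marker sum (Pearson r of 0.84, Spearman rho of 0.64), and without the 2 libraries farthest from the median sum r was 0.53. The libraries share tissue, and the sum is read from the same libraries as Grin2c. The lowest Grin2c values of the h4/h4 and DBA/1J brains, 16.6 and 12.1 TPM, are in the 2 libraries with the lowest sums, 272 and 63.5 TPM. In h4/h4 against C57BL/6J brain edgeR and DESeq2 called 0 of the 8 granule cell and 0 of the 6 Purkinje cell markers, with 6 and 5 at an unadjusted p under 0.05. The granule cell sums were 272 to 531 against 440 to 593 TPM, and the Purkinje cell sums 1182 to 1513 against 1560 to 1751 TPM. Of the 8 oligodendrocyte markers 1 was called there (Opalin, 0.39 ± 0.07, edgeR adjusted p = 0.037). The part of these markers in the brain results was not tested. As a description, the h5/h5 effect on Grin2c in spinal cord against brain was -0.96 ± 0.31, a contrast in which edgeR called 0% of all genes (739 at an unadjusted p under 0.05, 4 by DESeq2), and in h4/h4 mice it was -0.38 ± 0.16 (edgeR adjusted p = 0.5), beside 0.0054% of genes called.

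**Figure D4:**
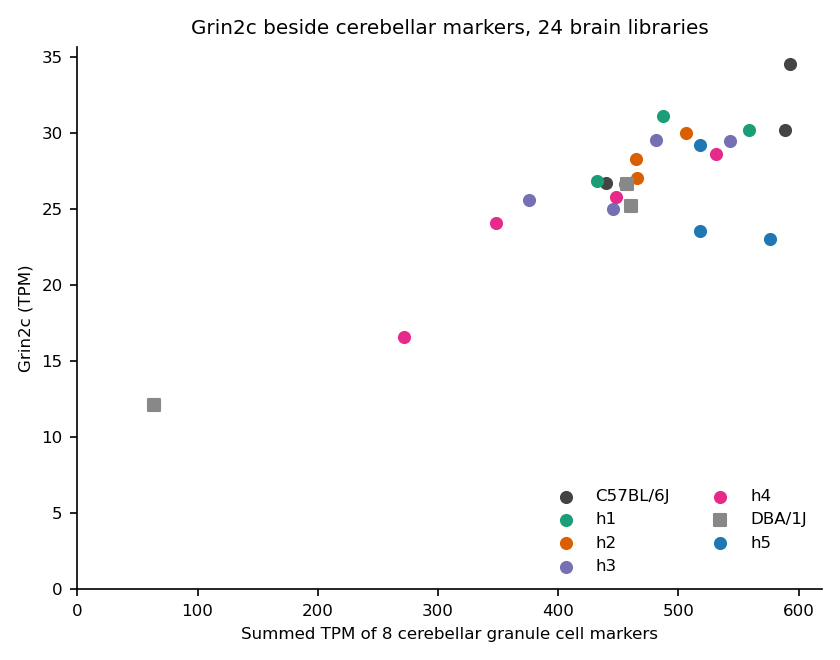
Grin2c (TPM) against the summed TPM of 8 cerebellar granule cell markers in the 24 brain libraries, both axes linear from 0, coloured by genotype with DBA/1J as squares. A DBA/1J library at 63.5 TPM of markers and an h4/h4 library at 272 TPM have the lowest Grin2c, 12.1 and 16.6 TPM.

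Astrocytes are a known source of Grin2c outside cerebellum, and their markers were set beside it. The 9 markers summed to 4270 to 4639 TPM in h4/h4 and 4251 to 4476 TPM in C57BL/6J spinal cord, where 1 rose (Slc1a3, the glutamate transporter GLAST, by 0.27 ± 0.04, edgeR adjusted p = 0.0046) and none fell. The sums were 1879 to 1950 TPM in h5/h5 and 1783 to 2301 TPM in DBA/1J cortex, and 2062 to 2126 against 1939 to 2122 TPM in hippocampus. Of the 8 markers tested edgeR called 0 in either region (1 and 2 at an unadjusted p under 0.05, 1 in each, Gfap, by DESeq2), with Gfap, an intermediate filament gene of reactive astrocytes, at 0.75 and 0.33 in the edgeR fits, and S100b was under 0.1 TPM in every DBA/1J and h5/h5 group. In h5/h5 cortex the 5 meningeal fibroblast markers summed to 80.7 to 96.0 TPM against 65.5 to 86.0 TPM in DBA/1J, with 0 called by edgeR, 3 at an unadjusted p under 0.05 and 2 (Col1a1 and Col1a2) called by DESeq2, and the 6 hippocampal excitatory neuron markers to 70.0 to 116 TPM against 44.2 to 74.7 TPM, with 2 at an unadjusted p under 0.05 and 0 called by either tool. The astrocyte sum in h5/h5 spinal cord was 3503 to 3640 TPM, against 3210 to 3767 TPM, and replicate 3 stood apart in the fibroblast markers, at 330 TPM against 44.5 and 60.2 TPM in the other mutants and 38.2 to 55.4 TPM in DBA/1J. With and without it the log2 fold change of Grin2c there was -0.79 and -0.78. Among other markers in h4/h4 spinal cord, Syt1 (neurons) and Gad1 (inhibitory neurons) fell by 0.20 ± 0.04 and 0.19 ± 0.03, and Opalin (oligodendrocytes) and Col1a2 (fibroblasts) rose by 0.43 ± 0.09 and 0.52 ± 0.06. Each was the only marker of its list called by edgeR (DESeq2 also called Gad2), among 8 neuron, 6 inhibitory neuron, 8 oligodendrocyte and 5 fibroblast markers, and the oligodendrocyte sums overlapped (20503 to 23481 TPM in h4/h4 and 21343 to 23255 TPM in control mice). In h2/h2 spinal cord these 4 genes were called with the same signs (-0.13, -0.19, 0.34 and 0.28), where Grin2c was at -0.07 and not called. Unlike in h4/h4 mice, edgeR also called Gad2 (-0.12) and the astrocyte markers Aqp4 (-0.17) and Slc1a2 (-0.10) there. The part of these cell types in the change of Grin2c was not tested.

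In the edgeR fits of 1 mutant group against its controls no other member was called in any of the 12 mutant comparisons tested, while an edgeR fit of all spinal cord groups called Grin1 in h3/h3 mice. In h1/h1, h2/h2 and h3/h3 brain the shares of all genes called were 0%, 0.136% and 0.164%, in h5/h5 brain 0%, and in h1/h1, h2/h2 and h3/h3 spinal cord 0.289%, 2.09% and 1.01%. In h1/h1 and h5/h5 brain, where no gene was called, 745 and 1003 genes had an unadjusted p under 0.05 and DESeq2 called 21 and 64. Of the 7 members, unadjusted p-values under 0.05 were seen for 1 in h2/h2 brain (Grin3b), 2 in h5/h5 brain (Grin2a and Grin2b), 1 in h2/h2 spinal cord (Grin2a) and 2 in h3/h3 spinal cord (Grin1 and Grin3b), and for none in h1/h1 brain or spinal cord or h3/h3 brain. DESeq2 called Grin1 in h3/h3 spinal cord and none in the other 6 of these comparisons. The differences in h1/h1 to h4/h4 effect between spinal cord and brain called no member by edgeR or DESeq2, and edgeR called 0% of all genes in h1/h1, h2/h2 and h3/h3 mice (689, 1014 and 918 at an unadjusted p under 0.05, and 4, 9 and 7 by DESeq2). Among members, Grin3b in h2/h2 and Grin2c in h4/h4 mice had an unadjusted p under 0.05 there.

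Grin1 moved little. In h3/h3 spinal cord it had 157, 168, 148 and 163 TPM against 142, 147 and 154 TPM in C57BL/6J mice, overlapping groups with a log2 fold change of 0.13 ± 0.04 (edgeR adjusted p = 0.14, DESeq2 0.027, edgeR fit of all spinal cord groups 0.024). Its fold changes in the other 11 comparisons tested lay between -0.06 and 0.11. Grin2a and Grin2b in h5/h5 brain were at -0.19 ± 0.07 and -0.22 ± 0.06 (edgeR adjusted p = 0.76 and 0.62), with overlapping TPM. In h4/h4 spinal cord Grin2a had 18.5, 19.6, 19.95 and 19.7 TPM, below the 20.4, 20.9 and 21.3 TPM of controls (-0.09 ± 0.03, edgeR adjusted p = 0.23), as did 8.55% of genes. Grin2b varied more in TPM there, from 11.9 to 19.2, and its mean TPM was higher than in controls (14.2 against 13.5) through replicate 3 at 19.2 TPM, while its log2 fold change from counts had the opposite sign, at -0.11 ± 0.04 (edgeR adjusted p = 0.24).

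Grin2d and Grin3a differed most in the dissected regions of h5/h5 mice, without being called. Grin2d had 7.18, 7.76 and 6.44 TPM in h5/h5 cerebellum against 5.64, 6.26 and 5.45 TPM (0.29 ± 0.11, edgeR adjusted p = 0.86), and 5.76, 5.78 and 6.17 TPM in hippocampus against 4.85, 5.53 and 5.42 TPM (0.28 ± 0.08, adjusted p = 0.99). Both sets of mutant libraries lay above their controls, by little, as did 5.58% of genes of at least 1 TPM in cerebellum and 8.81% in hippocampus. Grin3a had 9.83, 10.3 and 9.99 TPM in h5/h5 cerebellum, below the 12.5, 11.7 and 10.5 TPM of DBA/1J (-0.19 ± 0.07, edgeR adjusted p = 0.86, with 4.51% of genes of at least 1 TPM wholly below). In hippocampus it was higher in h5/h5 mice, at 17.7, 21.5 and 20.1 TPM against 13.7, 18.4 and 17.1 TPM, overlapping groups with a log2 fold change of 0.24 ± 0.11, which was not called. In the same cerebellum contrast the median of the 5 choroid plexus markers was -1.54 on the log2 scale (0 called by edgeR, 3 at an unadjusted p under 0.05, and Otx2 by DESeq2). The 5 fibroblast markers summed to 152 to 187 TPM in h5/h5 and 183 to 208 TPM in DBA/1J cerebellum (0 called by edgeR or DESeq2, 4 at an unadjusted p under 0.05), and the part of both lists in these values was not tested. Grin3b had log2 fold changes of 0.66 to 0.95 in h1/h1 to h4/h4 brains, with standard errors of 0.43 to 0.55 at 0.10 to 0.82 TPM, and was not called. All 4 rest on the same 3 control brains, at 0.49, 0.10 and 0.26 TPM, and leaving out 1 library gave values from 0.31 to 1.31.

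**Figure D5:**
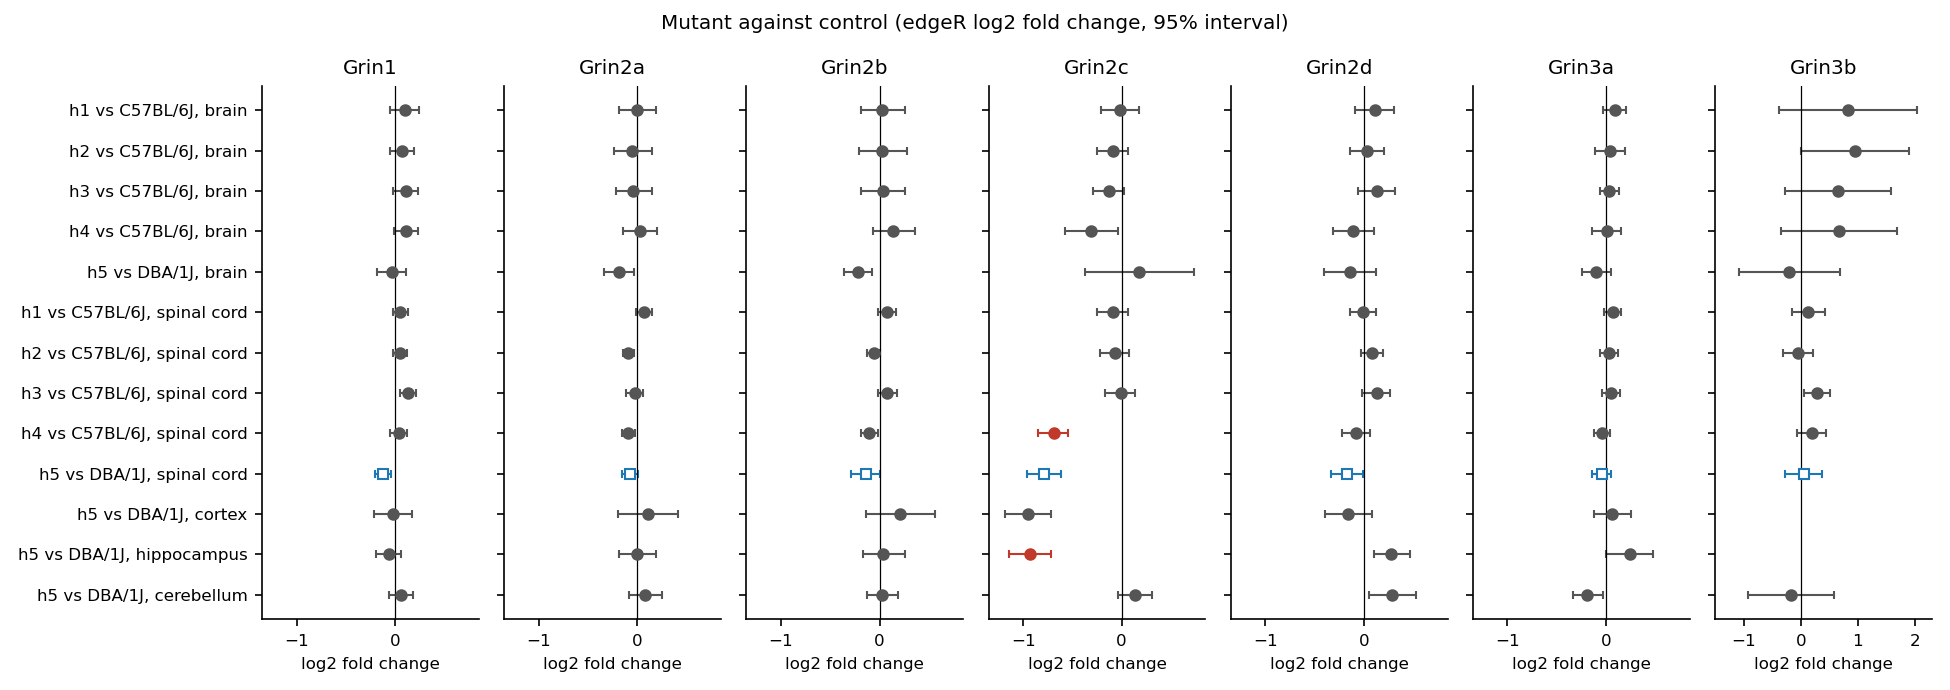
Log2 fold change with its 95% interval (edgeR) of each member in the 13 mutant comparisons. The intervals of the h5/h5 spinal cord contrast are a description only and stand for no test. Red points passed an adjusted p of 0.05, grey points did not, blue open squares mark the h5/h5 spinal cord contrast that chose the genes and has no test, and Grin3b, with a wider axis, has no value in h5/h5 cortex and hippocampus. Grin2c in h4/h4 spinal cord (-0.69) and in h5/h5 cortex (-0.95) and hippocampus (-0.93) stands apart from the other members of the same comparison. Grin3b has values of similar size in brain, with wide intervals.

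The genes that anchor the receptor, act downstream of it, supply its co-agonists or handle glutamate were read from 5 lists, holding 21 anchoring and trafficking genes, 20 signalling genes, 16 co-agonist genes, 11 AMPA, kainate and delta receptor subunits and 7 glutamate transporters. In h4/h4 spinal cord edgeR called 4 of these 75 genes, beside 1.75% of all genes, and DESeq2 called 7. Camk2a, the kinase activated by NMDA receptor calcium, fell by 0.23 ± 0.04 (edgeR adjusted p = 0.0054) and the AMPA receptor subunit Gria2 fell by 0.17 ± 0.04 (adjusted p = 0.046). Dao, the D-amino acid oxidase that degrades D-serine, rose by 0.50 ± 0.06 (edgeR adjusted p = 0.00097), and Slc1a3 rose as given above. The list medians there were between -0.09 and 0.05, beside -0.002 for all genes.

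In h2/h2 spinal cord edgeR called 2 of the 75, beside 2.09% of all genes, and DESeq2 called 7. Those called by edgeR were the postsynaptic scaffold gene Dlgap1 at -0.17 ± 0.03 (edgeR adjusted p = 0.0061) and the astrocyte glutamate transporter gene Slc1a2 at -0.10 ± 0.03 (adjusted p = 0.046). In h4/h4 brain 1 was called, beside 0.703% of all genes, Lin7a, of a complex that carries NMDA receptors, at -0.23 ± 0.05 (edgeR adjusted p = 0.045), and DESeq2 called 3 (Lin7a, Camk2g and Rasgrf2). edgeR called 0 in each of the other 9 comparisons tested, h5/h5 cortex, hippocampus and cerebellum among them, with 3 to 19 at an unadjusted p under 0.05 and 0 to 4 by DESeq2. In h5/h5 cortex the list medians were between -0.02 and 0.06, and in hippocampus between -0.04 and 0.06. By contrast, 19 of 21 anchoring genes were lower in C57BL/6J spinal cord than in brain and none was higher (list median -1.23), where 5034 of all 17647 genes were lower and 4999 higher, and 9 of 16 co-agonist genes were higher and 2 lower (median 0.19).

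The genes whose mean levels over the 20 groups were most like each member, by Pearson's r of log2(TPM + 0.1) among 18050 genes, were Cabin1 for Grin1 (0.9891), Wasf1 for Grin2a (0.9947), Ildr2 for Grin2b (0.9954), P2rx5 for Grin2d (0.9802), Fstl5 for Grin3a (0.9662) and Lrrc75b for Grin3b (0.9844). Grin2c was closest to Psg16 (0.9808), followed by Dlx4os (0.9777) and Phex (0.9765). The groups share tissues, and the values are given as a description.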

How the data were processed

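Poly(A) RNA from 66 mouse samples was sequenced in paired ends. According to the methods of the study and its processing notes, reads were checked with FastQC, trimmed with Trim Galore, aligned to GRCm38 with STAR and quantified with RSEM at default settings. The deposited tables hold, per gene, the expected counts that the authors obtained from RSEM, which divides reads that match several genes, its TPM (a level per effective length), and effective lengths. Here expected counts were rounded to whole numbers, and symbols were matched by Ensembl identifier to 41407 of 45706 genes.

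Each of 28 comparisons (13 mutant, 5 region, 2 strain and 8 differences between effects) was fitted over all genes that passed filterByExpr, with edgeR 4.0.16 in R 4.3.3, TMM factors and the quasi-likelihood test. P-values were adjusted by Benjamini-Hochberg over all genes, and genes under 0.05 were called. The fits were tested on simulated data. Alternatives were DESeq2 1.42.0, DESeq2 size factors, no low-count filter, labelled sex, a replicate block, 1 fit per tissue, and leaving out each library. Between a mutant group and its controls, the block kept only replicate numbers present in both. Replicate 4 of h2/h2, h3/h3 and h4/h4 mice was thus left out of it. In the h1/h1 and h4/h4 comparisons every pair of equal replicate numbers deviated together (correlations of deviations from 0.15 to 0.57 over 3 pairs), by which these numbers were taken to pair the mice. The labels do not say what a number marks, and equal numbers share the labelled sex in these comparisons. In h3/h3 mice, where equal numbers differ in sex, the correlations were -0.48 to -0.02. Tissues of the same mouse were matched by their identifiers for the block. The main fits between tissues, and of differences between effects, held no term for the animal. No replicate pair of 78 held identical values.

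The members and gene lists were chosen with earlier results of these data known. All 7 members are named, list genes by being called (at most 4 per list), and like genes as the 3 with the highest r. Levels are TPM, and between-gene comparisons use TPM alone. Promoter sequences, from RefSeq on GRCm38.p6, were found for 4 of 7 members.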

Additional observations from a re-analysis of the deposited data

Results flagged for a closer look

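Each of the 7 members was examined in each group of 4 libraries, and in 3 of these 42 cases 1 library stood far from the other 3. In h3/h3 brain, Grin2b was lowest at 61.46 TPM, with a gap of 0.887 of the group's range. In h4/h4 brain, the same library, replicate 2, was highest in Grin1 (217.63 TPM, gap 0.85) and in Grin2a (66.14 TPM, gap 0.954). Chance alone gives such a gap in about 1 in 20 cases.

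The h5/h5 effect on Grin2c was higher in cerebellum than in cortex by 1.10 and than in hippocampus by 1.07 on the log2 scale, and edgeR called both differences. The regions come from the same mice, and with the animal as a block the former was not called (adjusted p of 0.12, against 0.035 for the latter).

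For Grin2b in spinal cord, all h2/h2 libraries lay below all C57BL/6J libraries (log2 fold change -0.06) and all h3/h3 libraries lay above them (0.08). Of genes of at least 1 TPM, 4.54% lay wholly below in h2/h2 and 2.68% wholly above in h3/h3 mice. The Grin2b values were not called, both rest on the same 3 control libraries, and the difference between the strains was not tested.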

How the results depend on the processing

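Grin2c in h4/h4 spinal cord kept its call under every alternative run, and no called value changed sign. The number of members called changed from 0 to 1 with the replicate block in h4/h4 brain (Grin2c), with DESeq2 and with 1 fit per tissue in h3/h3 spinal cord (Grin1, 1 under each), and with DESeq2, no low-count filter or labelled sex in h5/h5 cortex (Grin2c, 1 under each). The labelled sex of 1 mutant in that cortex fit goes against its reads. It fell from 1 to 0 with the replicate block in h5/h5 hippocampus and for the h5/h5 effect in cerebellum against cortex. It fell from 2 to 1 with no low-count filter for hippocampus against cortex, and with the replicate block between strains in brain, and from 3 to 2 with the block between strains in spinal cord (Grin1). Leaving out single libraries gave 0 to 1 members in h5/h5 cortex and hippocampus and in both cerebellum differences, 0 to 2 for hippocampus against cortex, 1 to 2 between strains in brain and 2 to 4 between strains in spinal cord. In the h2/h2, h3/h3, h5/h5 and strain comparisons the groups share only a replicate number. The block changed the number of members called in no other comparison. The cause of these changes was not tested.

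Counts over all genes depended more on the tool. In h4/h4 spinal cord edgeR called 305 genes and DESeq2 603, in h4/h4 brain 125 and 464 (240 with the block), and in h5/h5 hippocampus 2 and 43. In h5/h5 cortex leaving out a library gave 0 to 221. With TMM-scaled values per length, cerebellar Grin2c of h5/h5 mice was 126 in place of 141, and the gene most like Grin2c or Grin3b changed with log2(TPM + 1) (r of 0.9824 and 0.9885).

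With 3 or 4 mice a group, small changes may stay below detection. Grin3b had 0 to 275 counts a library, and the part of depth in its lack of calls was not tested.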
